A study of Mus musculus with 2 samples.

Results

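The genes described here encode 9 chains of the common gamma chain and type 2 cytokine receptors: Il2rg, Il7r, Il2ra, Il2rb, Il9r, Il21r, Il15ra, Il4ra and Il13ra1. They were taken by symbol from the 32285 genes of the matrix, and all 9 were found. Single-cell RNA was read from fetal lungs of wild-type mice at gestation day 18, whose mothers (9 weeks old) were given a synthetic glucocorticoid, dexamethasone (DEX), at 1.3 µg/ml or PBS alone in their drinking water from day 12. Cells were sorted as live, CD45+, lineage-negative and ST2+, so no chain described here was part of the gate. Lungs were pooled by litter, 1 mother each (DEX-1 with 8 fetuses, DEX-2 with 9, PBS-1 with 5 and PBS-2 with 8), and hashtag antibodies marked the litters within 1 pooled run, so all litters share its preparation. The litter is the replicate (n = 2 per group), p-values measure the spread between these litters, and an exact permutation test of 2 against 2 litters cannot give a p below 0.333.

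The common gamma chain, encoded by Il2rg, is the shared signalling subunit of the receptors for IL-2, IL-4, IL-7, IL-9, IL-15 and IL-21. Each receptor adds further chains, called private here, though Il2rb serves both IL-2 and IL-15. IL-7 needs Il7r, which also pairs with Crlf2 to bind thymic stromal lymphopoietin (TSLP). IL-2 binds Il2rb and Il2rg with moderate affinity and with high affinity once Il2ra (CD25) joins. IL-4 uses Il4ra with Il2rg, or Il4ra with Il13ra1, which also binds IL-13. The receptors signal through JAK kinases and STAT factors. Group 2 innate lymphoid cells (ILC2s), the tissue lymphocytes that make type 2 cytokines, depend on IL-7 and respond to IL-2 and IL-9.

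After hashtag calling, 7268 singlets were used, between 1737 and 1890 per litter. Clusters named from marker genes gave 2049 ILC2-like, 2319 mast-like, 482 basophil-like, 427 mast or basophil-like, 250 macrophage or monocyte-like, 199 B-like, 447 epithelial-like, 281 endothelial-like and 195 mesenchymal-like cells, and 619 cells stayed unnamed. The ILC2-like cells carried the ILC2 list (11 genes, in 65.6% of cells on average, from 6.05% for Klrg1 to 96.5% for Rora). They also held Cd3g in 85.9% of cells, and Cd4 in 0.0488%. UMIs (unique molecular identifiers) of Sftpc, a surfactant gene of epithelial cells, were in 77.4% of them. The labels call the sorted cells ILC2s, but markers of that type defined 28.2% of the singlets. Among the named classes the median depth ran from 3528 UMIs per B-like cell to 17506 per epithelial-like cell. The unnamed cells had a median of 27380 UMIs. Levels are CPM, the UMIs of a gene scaled to a common total of all gene UMIs in the class summed within a litter, and are given as the mean ± SD of the 4 litters. In such sums fewer cells with a transcript and less transcript per cell cannot be told apart. Clusters were made from the same cells, so levels across classes and subclusters are a description without a test.

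Il2rg (X, 101264378 to 101268255, minus strand, GRCm38) was found in every class. Its level was 690 ± 13.4 CPM in ILC2-like cells, then 435 ± 26.7 CPM in the mast or basophil-like class and 398 ± 19.0 CPM among B-like cells. It was 231 ± 10.7 CPM in mast-like, 220 ± 6.14 CPM in basophil-like and 197 ± 8.12 CPM in endothelial-like cells. The lowest levels were 30.7 ± 16.1 CPM in macrophage or monocyte-like and 29.8 ± 12.0 CPM in epithelial-like cells. The litter ranges of mast or basophil-like and B-like cells overlapped, as did those of mast-like and basophil-like cells, whereas every litter of the ILC2-like cells lay above every litter of every other class.

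**Figure D1:**
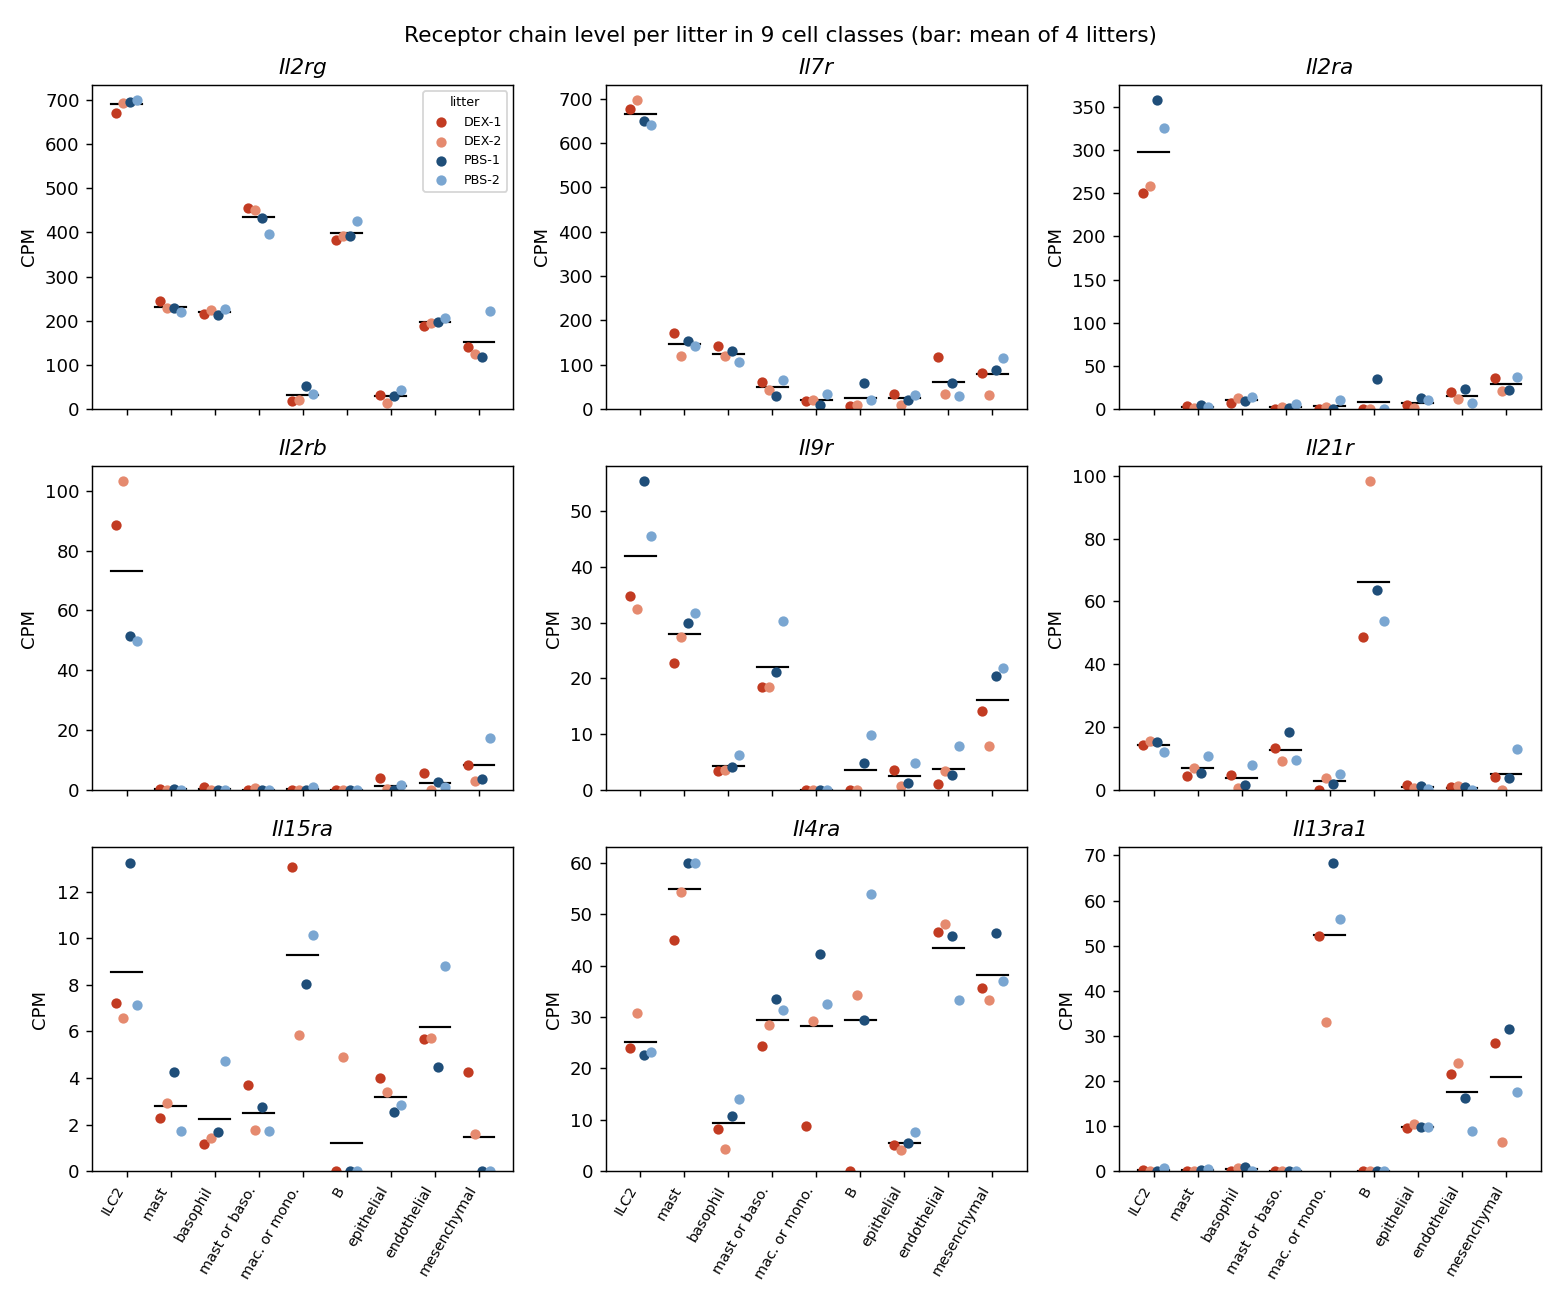
Level of each chain in CPM (linear axis from 0, a different range in each panel) in 9 cell classes, with 1 point per litter and a bar at the mean of 4 litters. Il2ra and Il2rb stand far higher in ILC2-like cells than elsewhere, Il21r is highest in B-like cells (66.1 CPM) and Il13ra1 in macrophage or monocyte-like cells (52.4 CPM).

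Il7r, the alpha chain of the IL-7 receptor (15, 9505788 to 9530176, minus strand), was high in ILC2-like cells and intermediate in mast-like and basophil-like cells. It stood at 666 ± 26 CPM in ILC2-like cells and was held by 96.1% of them. Mast-like cells had 147 ± 22.1 CPM and basophil-like cells 125 ± 15.4 CPM, with overlapping litter ranges. The structural classes lay lower, at 79.4 ± 35 CPM in mesenchymal-like, 60.0 ± 40.7 CPM in endothelial-like and 23.9 ± 11.6 CPM in epithelial-like cells. After thinning each cell to 2000 UMIs, Il7r was found in 71.4% of ILC2-like, 23.7% of mast-like, 22.7% of basophil-like and 4.29% of epithelial-like cells. Before thinning these shares were 96.1%, 48.7%, 52.7% and 12.5%, at median depths of 7246, 6315, 7218 and 17506 UMIs.

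Il2ra and Il2rb, the IL-2 receptor alpha and beta chains, were high in the ILC2-like cells and low in the other classes. Il2ra (2, 11642807 to 11693193, plus strand) reached 298 ± 52.1 CPM there, against at most 28.9 ± 8.64 CPM in any other class. Il2rb (15, 78479256 to 78495271, minus strand) reached 73.2 ± 26.8 CPM, against 8.22 ± 6.61 CPM in mesenchymal-like cells, the next class. In the 2319 mast-like cells 3 Il2rb UMIs were counted. In the 199 B-like cells 0 of 755671 UMIs were Il2rb, which allows up to 3.97 CPM. Such limits cover counting error alone.

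Il9r, the private chain of the IL-9 receptor (11, 32187541 to 32200279, minus strand), was found mainly in the ILC2-like and mast-like classes. Its level was 42.0 ± 10.5 CPM in ILC2-like, 27.9 ± 3.88 CPM in mast-like and 22.1 ± 5.60 CPM in mast or basophil-like cells. Basophil-like cells had 4.37 ± 1.30 CPM, and every litter of theirs lay below every litter of the mast-like cells. In macrophage or monocyte-like cells 0 UMIs were counted, which allows up to 1.35 CPM.

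The other private chains had their highest mean level outside the ILC2-like cells. Il21r, which binds IL-21, was at 66.1 ± 22.3 CPM in B-like cells, where each litter exceeded every litter of the ILC2-like cells (14.4 ± 1.56 CPM). Il15ra, which presents IL-15, ranged from 1.23 ± 2.45 CPM in B-like cells to 8.55 ± 3.14 CPM in ILC2-like and 9.27 ± 3.07 CPM in macrophage or monocyte-like cells. The litters of the last 2 classes overlapped, and every ILC2-like litter lay above every mast-like litter (2.81 ± 1.09 CPM). Il4ra, the chain that binds IL-4, was highest in mast-like cells (54.8 ± 7.15 CPM), then in endothelial-like (43.4 ± 6.79 CPM) and mesenchymal-like cells (38.1 ± 5.70 CPM), with 25.2 ± 3.83 CPM among the ILC2-like and 9.34 ± 4.16 CPM among the basophil-like cells. Il13ra1, the chain that completes the IL-13 receptor, was at 52.4 ± 14.6 CPM in macrophage or monocyte-like cells, 20.9 ± 11.5 CPM in mesenchymal-like, 17.6 ± 6.75 CPM in endothelial-like and 9.88 ± 0.438 CPM in epithelial-like cells. In the ILC2-like cells 5 Il13ra1 UMIs were counted in all, and in the mast or basophil-like cells none.

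Whether 1 cell held the chains of a whole receptor was counted after thinning to 2000 UMIs. Il7r with Il2rg was found in 53.6% of ILC2-like, 8.78% of mast-like, 8.19% of basophil-like and 0.903% of epithelial-like cells. Il7r with Crlf2, the TSLP receptor pair, was found in 8.57%, 7.05%, 6.72% and 0.226% of the same classes. All chains of the IL-2 trimer were found in 4.23% of ILC2-like cells and in none of the thinned mast-like, basophil-like or B-like cells. Il21r with Il2rg was found in 8.65% of B-like cells and 2.07% of ILC2-like cells. The same pairs before thinning were held by 94.0% (Il7r with Il2rg) and 35.1% (Il7r with Crlf2) of ILC2-like cells and by 36.1% and 31.8% of mast-like cells.

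ILC2 RNA could be present in cells of other classes, so each class was split, after its levels were seen, into cells with and without a UMI of Gata3, Icos or Cxcr6. In the structural classes Il7r and Il2ra went with these markers. Il7r was at 252 CPM in the 31 epithelial-like cells with a marker UMI and 5.83 CPM in the 416 without. In endothelial-like cells it was 243 CPM in 40 cells and 14.7 CPM in 241, and in mesenchymal-like cells 284 CPM in 30 cells and 16.1 CPM in 165. Il2ra split in the same way, with 101 CPM and 0.220 CPM in epithelial-like and 78.4 CPM and 0.319 CPM in endothelial-like cells. Mast-like Il7r did not follow the markers, with 134 CPM in the 39 cells with a marker UMI and 146 CPM in the 2280 without. Basophil-like Il7r was 284 CPM in the 12 cells with a marker UMI and 121 CPM in the 470 without.

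Endothelial-like Il2rg also remained where the ILC2 markers were absent. In the 241 endothelial-like cells without a marker UMI it was 133 CPM in DEX-1, 163 CPM in DEX-2, 180 CPM in PBS-1 and 185 CPM in PBS-2, and 68.9% of them held an Il2rg UMI. In the 237 endothelial-like cells with no UMI of Ptprc, which encodes CD45, the level was 174 CPM. A missing Ptprc UMI does not mark cells free of leukocyte RNA. It was also missing in 54.2% of mast-like and 27.8% of ILC2-like cells, where Il2rg was at 234 and 710 CPM. In endothelial-like cells the mast marker list summed to 2496, 6519, 577 and 6463 CPM in DEX-1, DEX-2, PBS-1 and PBS-2, and its part in the Il2rg level was not tested. Epithelial-like cells without an ILC2 marker UMI had 12.2 CPM and an Il2rg UMI in 11.8% of cells, at a higher median depth than the endothelial-like cells. Il4ra in endothelial-like cells was 46.5 CPM without and 29.2 CPM with a marker UMI. Doublets within a litter were not removed, and their part in these values was not tested.

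**Figure D2:**
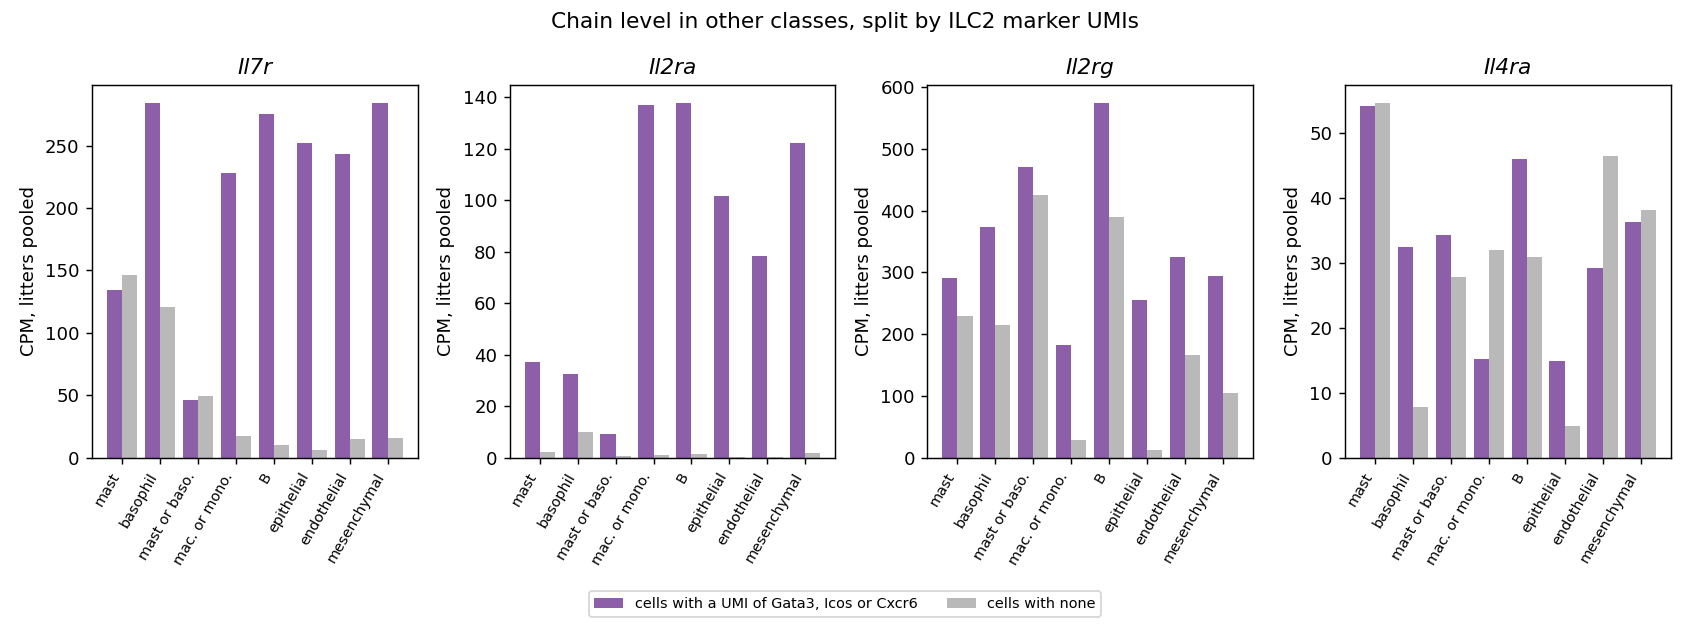
Level of 4 chains in CPM (litters pooled, bars from 0) in 8 classes, in cells with a UMI of Gata3, Icos or Cxcr6 (purple) and cells with none (grey). Il7r and Il2ra nearly vanish from the grey bars of the structural classes, while mast-like Il7r (146 CPM) and endothelial-like Il2rg (166 CPM) stay.

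Within the ILC2-like cells 6 subclusters of at least 50 cells were described. They held from 205 to 588 cells each. Subcluster 0 was led by the mitosis genes Ube2c and Cenpf, subcluster 1 by the replication genes Ung and Mcm2, subcluster 2 by Ms4a4b, Cd7 and Tcf7, subcluster 3 by Epcam, Rnf128 and Calca, subcluster 4 by Ramp3 and Tnfrsf9, and subcluster 5 by Atp4a and Pla2g7, with the mast cell and basophil genes Cpa3, Hdc and Gata1 also among its leading genes. The 2 IL-2 receptor chains were distributed differently. Il2rb was highest in subcluster 4 (144 ± 42.2 CPM) and subcluster 2 (110 ± 34.6 CPM), and lowest in subcluster 5 (34.6 ± 35.8 CPM). Il2ra was lowest in subcluster 2 (143 ± 12.8 CPM) and highest in subclusters 5 (440 ± 108 CPM) and 3 (406 ± 33.8 CPM). Every litter of subcluster 2 lay below every litter of each other subcluster for Il2ra.

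Il7r was lower in the cycling subclusters, with 460 ± 15.8 CPM in subcluster 0 and 510 ± 94.5 CPM in subcluster 1, against 951 ± 82.9 CPM in subcluster 3 and 947 ± 43.9 CPM in subcluster 2. Il2rg varied least, from 619 ± 28.5 CPM in subcluster 0 to 844 ± 53.3 CPM in subcluster 5. Il4ra was at 48.8 ± 11.5 CPM in subcluster 5 and 46.8 ± 7.73 CPM in subcluster 4, and at 28.4 ± 2.11 CPM or less in the rest, without overlap between these groups of litters. Il9r ranged from 31.0 ± 7.66 CPM in subcluster 2 to 56.9 ± 8.67 CPM in subcluster 3. The cycling cells were deeper, with a median of 14380 UMIs in subcluster 0 against 5400 in subcluster 5.

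The comparison of DEX with PBS asked whether receptor chain transcripts in fetal cells differ with maternal glucocorticoid. In ILC2-like cells Il2rb rose and Il2ra and Il9r fell in the DEX litters, while the shared chain Il2rg and Il7r did not pass the test. With edgeR's quasi-likelihood test and Benjamini-Hochberg adjustment, 245 of 10638 genes were called (2.3%), 116 higher (1.09%) and 129 lower in DEX (1.21%). Of the 9 chains 8 could be tested, 1 was called higher and 2 lower, and Il13ra1 was too low to test. The median log2 fold change of the 8 was 0.04, beside 0.00402 over all genes tested.

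Il2rb was at 88.6 CPM in DEX-1, 103 CPM in DEX-2, 51.5 CPM in PBS-1 and 49.7 CPM in PBS-2. Both DEX litters stood above both PBS litters, and the log2 fold change was 0.93 ± 0.11 (SE; adjusted p = 0.000404, edgeR). Il2rb is on a list of DEX-exposure genes that the study chose on these same samples, so its direction is not independent evidence. After thinning, an Il2rb UMI was found in 14.7% of DEX-1 cells (Wilson 95% interval 12.0% to 17.9%), 16.4% of DEX-2 (13.2% to 20.1%), 10.2% of PBS-1 (7.82% to 13.3%) and 9.07% of PBS-2 cells (6.97% to 11.7%). Cells that held one had between 1.12 and 1.26 UMIs on average. Il2rb is also used by NK and T cells. The NK list summed to 171, 68.8, 106 and 41.4 CPM in the litters in the order above and the T list to 543, 469, 518 and 518 CPM, without separation of the DEX from the PBS litters. The 5 genes of the NK list were found in 1.43% of cells on average, from 0.146% for Ncr1 to 4.15% for Gzma, and their part in the Il2rb difference was not tested. Without DEX-1 the log2 fold change of Il2rb was 1.06. The erythroid list summed to 245 CPM in DEX-1 and to between 9.76 and 14.5 CPM in the other litters, and its part in the Il2rb difference was not tested.

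Il2ra was at 250 CPM in DEX-1, 258 CPM in DEX-2, 358 CPM in PBS-1 and 325 CPM in PBS-2. Both DEX litters lay below both PBS litters, and the log2 fold change was -0.41 ± 0.08 (SE; adjusted p = 0.00988, edgeR). After thinning, 40.3% and 39.7% of DEX cells and 48.4% and 50% of PBS cells held an Il2ra UMI. The call was lost without litter DEX-1 (adjusted p = 0.0740), without PBS-1 (0.0509), after thinning (0.0685), in cells with no cycling gene UMI (-0.29, adjusted p = 0.184, edgeR) and with equal subcluster shares in each litter (-0.27, adjusted p = 0.125, edgeR).

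Il9r was at 34.7 CPM in DEX-1, 32.4 CPM in DEX-2, 55.3 CPM in PBS-1 and 45.5 CPM in PBS-2. Both DEX litters lay below both PBS litters. The log2 fold change was -0.56 ± 0.13 (SE) with an adjusted p of 0.0388 (edgeR). This call was the least stable of the 3, with an adjusted p of 0.302 by DESeq2, 0.0750 without DEX-1, 0.223 without PBS-1 and 0.739 after thinning (edgeR, log2 fold change -0.33). The direction was kept in each alternative run.

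**Figure D3:**
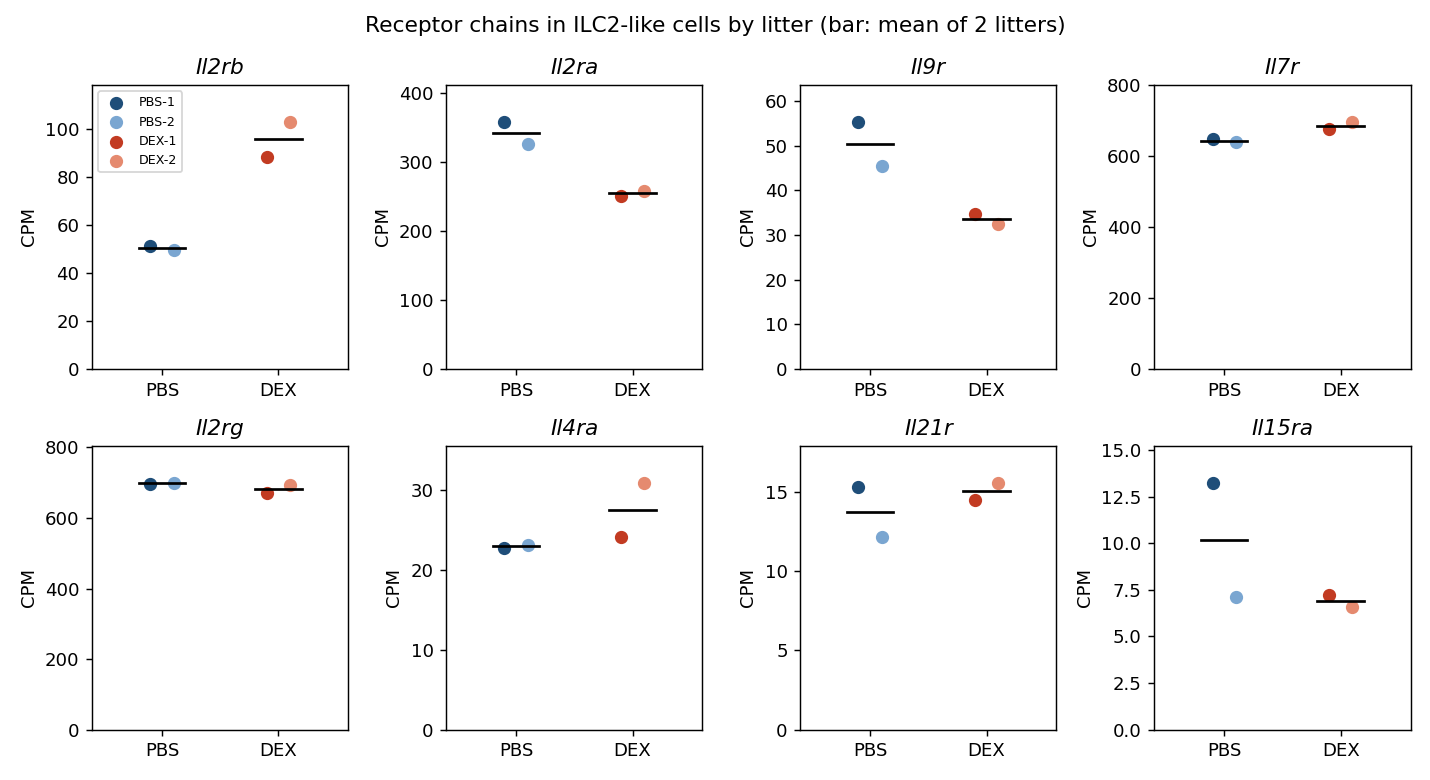
Level of 8 chains in ILC2-like cells in CPM (linear axis from 0, a different range in each panel), with 1 point per litter and a bar at the mean of each group's 2 litters. Both DEX litters lie above both PBS litters for Il2rb, and below for Il2ra and Il9r, and for Il2rg the litters span 670 to 700 CPM.

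The upstream sequences of the fallen chains are shown because Il2ra and Il9r moved in the same direction; entries for 8 of the 9 chains were in the RefSeq table, and Il2rb was the missing one. The 250 bases before the start are printed 5′ to 3′ on the gene's strand (GRCm38.p6), with capitals marking a match to GATAA or TGTTCT on either strand. The motifs were chosen after the values were seen.
Il2ra, chr2:11642542-11642791, plus strand: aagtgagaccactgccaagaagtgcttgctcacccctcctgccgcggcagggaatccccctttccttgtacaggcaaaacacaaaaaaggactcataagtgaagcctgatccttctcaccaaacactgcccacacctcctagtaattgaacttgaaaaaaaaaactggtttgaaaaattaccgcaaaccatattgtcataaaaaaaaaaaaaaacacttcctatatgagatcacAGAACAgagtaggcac
Il9r, chr11:32200280-32200529, minus strand: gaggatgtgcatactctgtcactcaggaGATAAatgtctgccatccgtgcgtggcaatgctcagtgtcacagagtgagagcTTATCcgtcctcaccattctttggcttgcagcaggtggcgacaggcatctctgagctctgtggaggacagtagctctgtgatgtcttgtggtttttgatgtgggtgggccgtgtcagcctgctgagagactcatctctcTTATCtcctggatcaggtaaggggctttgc
Counting from the start, Il9r held GATAA, the core bound by GATA factors, at -222, -169 and -30. Of 32851 promoter windows of 300 bases (250 before and 50 after the start, with 1 chromosome left out) 25.4% held this motif and 0.938% held it 3 times or more. Il2ra held TGTTCT, a half-site of the glucocorticoid receptor, at -16 and 37, and 19.0% of the windows held it. The same letters lay at -129 in Il2rg and at 24 in Il13ra1, of which Il2rg was not called in ILC2-like cells and Il13ra1 was too low to test. The STAT motif TTCNNNGAA, found in 8.30% of the windows, was in neither of these 2 and lay at -142 in Il7r. No matches overlapped. A match is a description of letters and not of binding.

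The 5 tested chains that were not called in ILC2-like cells had small or imprecise differences. Il7r was at 677, 697, 649 and 640 CPM in DEX-1, DEX-2, PBS-1 and PBS-2, and its log2 fold change was 0.10 ± 0.07 (SE; adjusted p = 0.610, edgeR). Il2rg was at 670, 693, 697 and 700 CPM in the same order, and its log2 fold change was -0.02 ± 0.07. For Il4ra the values were 24.1, 30.9, 22.7 and 23.1 CPM, and the log2 fold change was 0.26 ± 0.17. Il21r (0.15 ± 0.19) and Il15ra (-0.50 ± 0.30) had overlapping litters. By litter ranges alone Il7r, Il2rb and Il4ra had both DEX litters above both PBS litters, where 20.3% of genes did, and Il2ra, Il2rg and Il9r had them below, where 22.6% of genes did.

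The subclusters kept the directions of 2 of the called chains. Il9r was lower in both DEX litters than in both PBS litters in all 6 subclusters, where 0.17% of 7630 genes with at least 10 UMIs in every subcluster were so placed. Il2rb was higher in both DEX litters in 5 of 6, where 0.826% of genes reached at least 5, a minimum set after its pattern was seen. Subcluster 5 was among these, with few Il2rb UMIs (under 10 in at least 1 litter of each group) and litters from 5.43 to 86.6 CPM. In subcluster 3 Il2rb was 74.3 and 99.2 CPM in the DEX litters against 29.9 and 41.1 CPM in the PBS litters, and in subcluster 0 it was 74.3 and 74.3 CPM against 40.9 and 42.8 CPM. In subcluster 4 its litters overlapped, with 141, 196, 146 and 92.4 CPM in DEX-1, DEX-2, PBS-1 and PBS-2. Il2ra was lower in both DEX litters in 3 of 6, with 215 and 196 CPM against 309 and 311 CPM in subcluster 0. These were subclusters 0, 2 and 4, where 20.3%, 16.1% and 16.7% of genes were so placed in each one alone. The share of genes so placed in 3 of 6 was not counted. Cells of 1 litter make up all of its subclusters, so the counts of subclusters share their source. Il9r, Il2rb and Il2ra were followed here because their sums over all ILC2-like cells, which hold these same cells, were already called. The 0.17% and 0.826% are shares of all 7630 genes, and the shares among genes already so placed in those sums were not counted. The subcluster shares also differed between the groups. Of 546, 447, 486 and 570 ILC2-like cells in DEX-1, DEX-2, PBS-1 and PBS-2, subcluster 4 held 77, 91, 37 and 49. Subcluster 2 held 95, 89, 62 and 55, and subcluster 3 held 131, 89, 180 and 188. Beyond the fits with equal subcluster shares, their part in the differences over all ILC2-like cells was not tested.

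**Figure D4:**
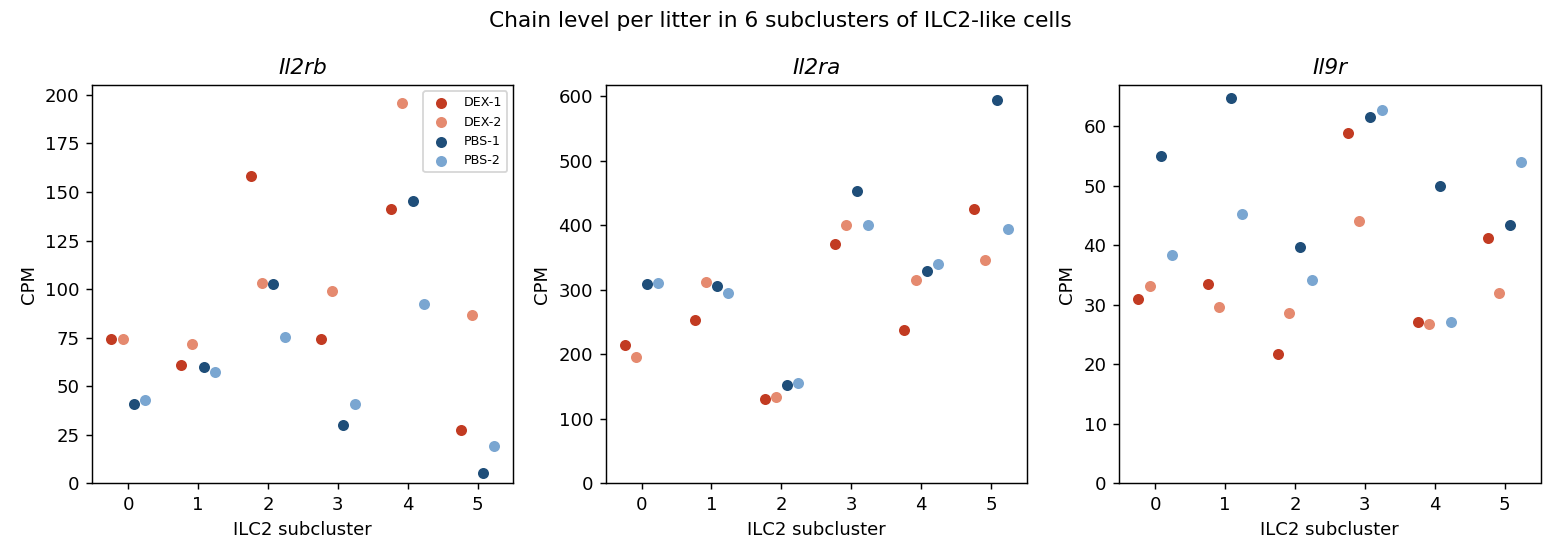
Level of Il2rb, Il2ra and Il9r in CPM (linear axis from 0) in 6 subclusters of ILC2-like cells, 1 point per litter. For Il9r the DEX points lie below the PBS points in each subcluster, and for Il2rb they lie above except in subcluster 4.

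In the genes around these receptors 26 of the 31 listed could be tested in ILC2-like cells, and 4 fell and none rose, beside 1.21% of all genes tested that were called lower and 1.09% called higher. Their median log2 fold change was -0.09. Bcl2, the survival gene induced by IL-7, fell from 176 and 180 CPM in the PBS litters to 109 and 102 CPM in the DEX litters, a log2 fold change of -0.74 ± 0.08 (adjusted p = 0.000275, edgeR). Among the feedback inhibitors, 2 of 4 fell in the ILC2-like class, beside the same 1.21% of all genes. These were Cish (-0.51 ± 0.08, adjusted p = 0.00401, edgeR) and Socs1 (-0.49 ± 0.09, adjusted p = 0.0108, edgeR), both induced by STAT5 and other STAT factors. Socs2 (0.04 ± 0.09) and Socs3 (-0.06 ± 0.15) did not pass the test.

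Of the 8 ligands 4 were tested and Il4 fell (-0.57 ± 0.09, adjusted p = 0.00583, edgeR), from 132 and 120 CPM to 90.5 and 77.8 CPM. Il13 had a log2 fold change of -0.45 ± 0.14 and Il2 of -0.57 ± 0.25, and neither passed. None of the 4 kinases or 4 STAT factors passed the test, with Jak1 at -0.12 ± 0.08, Jak2 at 0.28 ± 0.11, Stat3 at 0.22 ± 0.09 and Stat6 at 0.32 ± 0.12. Crlf2, which completes the TSLP receptor, was at -0.03 ± 0.12. Of the 9 survival and growth targets, Bcl2 was the one called, while Pim1 was at 0.11 ± 0.08 and Mcl1 at 0.08 ± 0.07. The alternative runs were read gene by gene for the receptor chains only. The calls of Bcl2, Cish, Socs1 and Il4 were not checked in them.

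**Figure D5:**
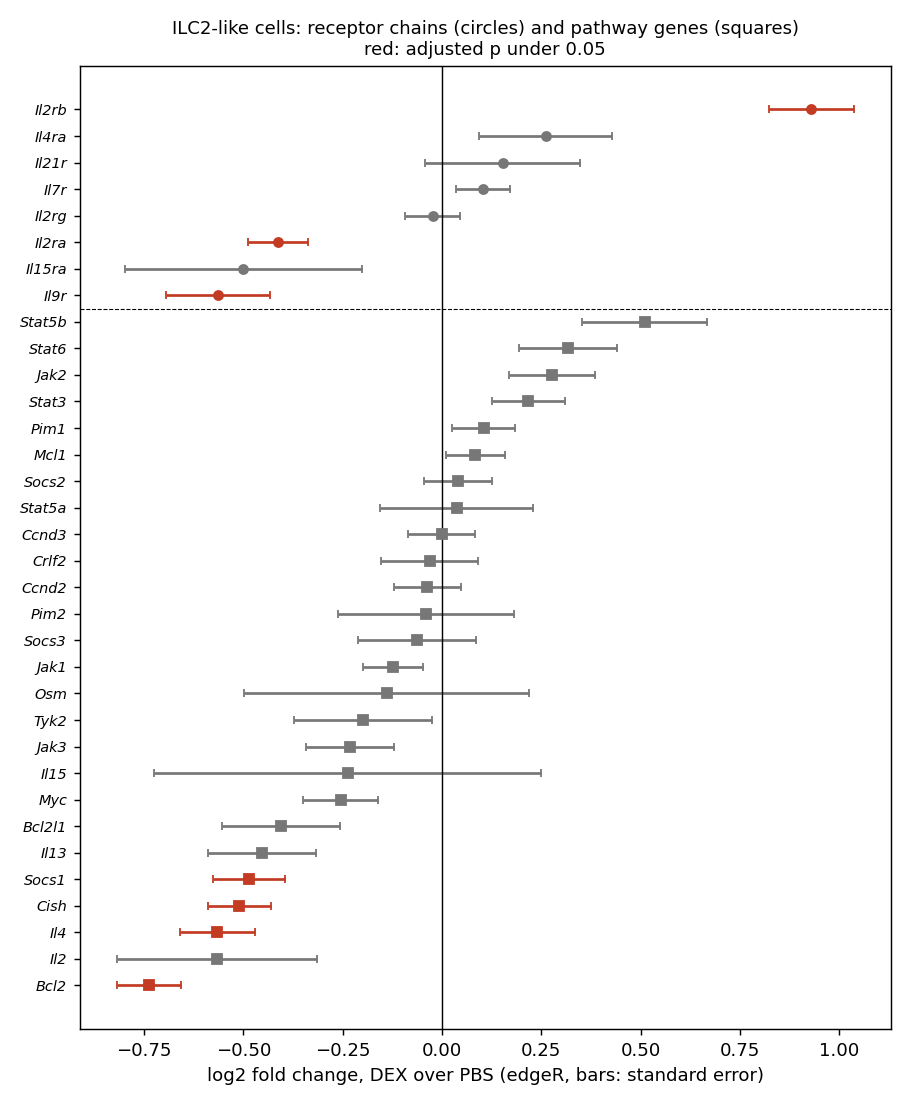
Log2 fold change of DEX over PBS in ILC2-like cells for 8 receptor chains (circles) and 26 pathway genes (squares), with standard errors from edgeR and red for an adjusted p under 0.05. Il2rb is the one red point to the right of 0, and Il2ra, Il9r, Socs1, Cish, Il4 and Bcl2 are the red points to the left.

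In basophil or mast-like cells (3228 cells of the mast-like, basophil-like and mast or basophil-like classes) no chain was called. No gene of 11501 was called there by edgeR (0%), 443 had an unadjusted p under 0.05, and DESeq2 called 4. Il4ra was at 35.3 and 37.8 CPM in the DEX litters and 44.2 and 47.6 CPM in the PBS litters, a log2 fold change of -0.32 ± 0.12 (adjusted p = 1.00, edgeR). Il9r was at 19.1 and 20.6 CPM against 22.8 and 28.7 CPM (-0.36 ± 0.16). Of the 7 chains that could be ranked, Il2ra, Il9r, Il21r and Il4ra had both DEX litters below both PBS litters, where 18.3% of genes did, and Il2rg had them above, where 13.2% did. Il7r was at 143, 94.4, 120 and 118 CPM in DEX-1, DEX-2, PBS-1 and PBS-2, with overlapping litters.

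Whether a chain's response to DEX differed between the ILC2-like class and the basophil or mast-like class was tested as an interaction, which called 4 of 12168 genes (0.0329%) and none of the 8 chains tested. For Il2rb, 6 UMIs were counted in the basophil or mast-like cells, and the interaction was imprecise (-0.89 ± 1.05, adjusted p = 1, edgeR). In the B-like (7 of 3294 genes called, 0.213%), epithelial-like (1 of 10903, 0.00917%), endothelial-like (0 of 8782, 0%) and mesenchymal-like cells (0 of 7507, 0%) no chain was called. In the endothelial-like and mesenchymal-like cells 340 and 299 genes had an unadjusted p under 0.05, and DESeq2 called 0 in each. Endothelial-like Il2rg was at 187, 195, 198 and 207 CPM in DEX-1, DEX-2, PBS-1 and PBS-2, a log2 fold change of -0.05 ± 0.14. Epithelial-like Il2ra had a log2 fold change of -1.80 ± 0.48 (adjusted p = 0.826, edgeR), with 68 of its 70 UMIs in cells that held an ILC2 marker UMI.

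Across 16 clusters of at least 50 cells, the genes closest in pattern to each chain were found by Pearson's r of log2(CPM + 1) among 12250 genes, as a description over clusters that share libraries and depth. Il2rb was closest to Cd3e (r = 0.99), Ccr4 (0.99) and Gm16271 (0.99), and Il2ra to Il17rb (0.97), Gata3 (0.97) and Zap70 (0.97). Il7r was closest to Ptgir (0.95), Zfand6 (0.94) and Ppp1r3f (0.94), and Il9r to Akap6 (0.95), Aff4 (0.94) and Tnfrsf9 (0.92). For Il2rg they were Prr7 (0.92), Flt3l (0.92) and Ptp4a2 (0.91), and for Il21r Taf5l (0.93), Atm (0.92) and Ctu2 (0.92). Il4ra was closest to Abi3 (0.93), Cltc (0.89) and Gngt2 (0.87), and Il13ra1 to Fcgrt (0.96), Cd302 (0.96) and Actn1 (0.96). The match was loosest for Il15ra, with Slc25a20 at 0.82.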

How the data were processed

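The authors aligned and counted 10x Genomics 5′ libraries with Cell Ranger 7 on mouse build mm10, and deposited 1 matrix of unnormalised UMI counts, with genes and 4 hashtags by barcode. Of 10648 barcodes 10409 had at least 200 genes and at most 5% mitochondrial UMIs. HTODemux (Seurat 5.3.0, quantile 0.99) gave 7268 singlets with 1 hashtag; 736 barcodes with several and 2405 with none were left out. No barcode occurred more than once in the matrix. Cells were clustered with scanpy 1.11.5 (2000 variable genes, with the chains, pathway genes, Gata3, Nr3c1, Il1rl1 and sex-linked transcripts left out, 20 components, 15 neighbours, Leiden resolution 0.5) and named from markers. Counts were summed by litter and class, and tested with edgeR 4.0.16 (quasi-likelihood F-test, TMM scaling, low-count filter, two-sided, Benjamini-Hochberg adjustment over all genes tested). Litter depth was 18665955 to 23660294 UMIs. The fits were tested on simulated data. Alternatives included DESeq2 1.42.0, limma 3.58.1, other hashtag calls and thinning. The chains, gene lists and tests were chosen with earlier results of these data known. All 9 chains were named in every class; pathway genes were named when called, along with at most 2 others per role, those with the highest mean level in ILC2-like cells. Gene positions are from GENCODE M21 (GRCm38). Same-numbered litters came from different mothers, and no pairing was used. For the likeness in pattern, 3 genes were named per chain, except for Il15ra, where 1 is given and the rest are not reported here.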

Additional observations from a re-analysis of the deposited data

Results flagged for a closer look

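Il4ra and Il2rg were placed oppositely in the litters of 2 classes. In ILC2-like cells 20.3% of all genes had both DEX litters above both PBS litters and 22.6% below. In basophil or mast-like cells these shares were 13.2% and 18.3%, and the share of genes placed oppositely in the 2 classes was not counted. Il4ra was higher in both DEX litters of the ILC2-like cells and lower in both DEX litters of the basophil or mast-like cells, and the difference between the classes was 0.59 ± 0.19 on the log2 scale (edgeR interaction, unadjusted p = 0.0106, adjusted p = 0.736), so it did not pass the test. Il2rg was placed the other way round, with a difference of -0.15 ± 0.11 (edgeR interaction, adjusted p = 1). Groups of 2 litters were too small for a check of outlying litters.

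Clusters left unnamed entered no comparison of classes or of DEX with PBS, but clusters 12 and 14 were among the 16 clusters used for likeness in pattern. Unnamed cluster 12 (366 deep barcodes led by Higd1b and Postn) had 73.9 CPM of Il2rg and 24.7 CPM of Il4ra, and unnamed cluster 14 (224 barcodes led by Gm15915 and Prtn3) had 69.4 CPM of Il2rg.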

How the results depend on the processing

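Il2rb kept its call and direction in ILC2-like cells in all 18 alternatives (log2 fold change 0.80 to 1.06, adjusted p at most 0.0196). Il2ra kept its direction in all 18 (-0.48 to -0.27) and lost its call in 5, and Il9r kept its direction in all 18 (-0.70 to -0.33) and lost its call in 8; the cause was not tested. Uncalled values changed sign in some settings. In ILC2-like cells Il2rg ran from -0.0675 to 0.0173 (without DEX-1) with 1 litter left out and was 0.0100 with equal subcluster shares, and Il21r ran from -0.0164 (without PBS-2) to 0.303 and was -0.16. In basophil or mast-like cells Il7r was -0.0202 with the replicate block, -0.0381 without the deepest cells, -0.0240 in cells not cycling and -0.32 (without DEX-1) to 0.28 with 1 litter left out, where Il15ra ran from -0.49 to 0.24 (without PBS-1). The interaction with 1 litter left out ran from -0.23 (without DEX-2) to 0.46 for Il7r, from -0.17 to 0.0535 (without DEX-2) for Il2ra and from -0.52 to 0.0904 (without PBS-1) for Il9r.

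The count of genes called in ILC2-like cells, 245, was 113 by DESeq2, 513 with no filter, 107 after thinning, 154 with equal subcluster shares and 223 to 364 with 1 litter left out, where a lone litter is assumed to vary like the others. With no filter the counts were 115 in basophil or mast-like, 91 in B-like, 138 in epithelial-like, 14 in endothelial-like and 84 in mesenchymal-like cells and 97 for the interaction. DESeq2 called 4, 3 and 5 genes in basophil or mast-like, B-like and epithelial-like cells. With 1 litter left out the counts ran from 0 (without PBS-1) to 28 (without DEX-2) in basophil or mast-like, 26 to 78 in B-like, 4 to 28 in epithelial-like, 0 (without either DEX litter) to 166 (without PBS-1) in endothelial-like and 21 to 167 in mesenchymal-like cells, and from 58 to 156 for the interaction. The litter numbers did not pair the samples (correlation of deviations between -0.172 and 0.116 over the 6 classes). A replicate block by litter number gave 644 calls in ILC2-like, 30 in B-like, 0 in epithelial-like and 1 in endothelial-like cells, with Il2rb, Il2ra and Il9r called as before. A crossed block, added after seeing the data, gave 208 in epithelial-like cells.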
